A study of Mus musculus with 2 samples.

Results

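Penk encodes proenkephalin, a secreted precursor that is cut into several short opioid peptides, the enkephalins. Here Penk is described in single-cell RNA sequencing of mouse epidermis, as the 1 gene with that symbol among the 27998 genes of both count tables. The libraries came from the epidermis of 2 male C57BL/6J mice at postnatal day 0, with 1 library per mouse, and both mice were Chrm3 knockout (KO), that is, they lacked the M3 receptor for acetylcholine, which Chrm3 encodes. The study asked what this receptor does in epidermal differentiation. Its wild-type animals were not analysed here, so every value is a level in KO epidermis and no effect of genotype was measured. The labels give no separate detail of the KO allele, and the epidermis had been split from the dermis before dead cells were removed.

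Proenkephalin carries repeated copies of Met-enkephalin and a copy of Leu-enkephalin, set off by basic residues, mostly in pairs, where proprotein convertases cut. Carboxypeptidase E then trims the ends, the peptides act on opioid receptors at the cell surface, and peptidases such as neprilysin break them down within a short range. Penk is best known in the brain, the adrenal medulla and immune cells, and enkephalins are also made in skin. Transcription of the gene responds to cyclic AMP and to AP-1 factors through an enhancer near its start.

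Penk lies on chromosome 4 of GRCm38 (mm10) at chr4:4133531-4138819, on the minus strand, and spans 5289 bases in GENCODE M21. Its transcript Penk-201 has 1449 bases in 2 exons. The libraries read the 3′ ends of transcripts, so a UMI of Penk says nothing about which peptide is made. A830012C17Rik, on the opposite strand, overlaps the 5′ end of the gene and has no row in the count tables. A search of the coding sequence found 7 stretches that encode an enkephalin, 6 of them Met-enkephalin and 1 Leu-enkephalin, all in exon 2. They are shown because they are what makes this transcript an opioid precursor. Each line runs 5′ to 3′ on the coding strand, the capitals mark the 5 codons of the peptide, and the 6 bases on either side are in lower case.
Met-enkephalin, copy 1: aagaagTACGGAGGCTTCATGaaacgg
Met-enkephalin, copy 2: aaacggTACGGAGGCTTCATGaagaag
Met-enkephalin, copy 3: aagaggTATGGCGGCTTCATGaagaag
Met-enkephalin, copy 4: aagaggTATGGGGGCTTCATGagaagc
Met-enkephalin, copy 5: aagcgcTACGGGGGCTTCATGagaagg
Leu-enkephalin, copy 6: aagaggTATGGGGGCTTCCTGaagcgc
Met-enkephalin, copy 7: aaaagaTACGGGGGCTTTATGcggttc
The flanks encode a pair of basic residues on both sides in 5 of the 7 copies. Copies 4 and 7 have such a pair only before the peptide. The first copy lies at chr4:4134334-4134348 and the last at chr4:4133848-4133862.

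Cells were kept at 900 to 7700 detected genes with fewer than 10% of UMIs from mitochondrial genes, after which mouse 1 had 7607 cells with 95048258 UMIs and mouse 2 had 11881 cells with 148843409 UMIs. The median cell held 10480 and 10580 UMIs. Between the libraries, 34 barcodes of kept cells were shared. Chrm3 itself was counted with 13 UMIs in mouse 1 and 19 in mouse 2, and without the deleted region in the labels these counts check nothing. The labels and the methods name different versions of the Chromium kit. Levels below are CPM, UMIs of the gene per 1000000 UMIs summed over the cells of a mouse and group, and intervals are exact 95% Poisson intervals that cover counting error only.

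Penk was present in both mice at nearly the same level. Mouse 1 had 3822 Penk UMIs, or 40.2 CPM, and 22.7% of its cells held at least 1. Mouse 2 had 5910, or 39.7 CPM, and 24.3% of its cells held at least 1. The UMIs were concentrated in few cells. The 1% of cells with the most Penk held 28.5% of the UMIs of mouse 1 and 27.3% of those of mouse 2, with up to 30 and 60 UMIs in a single cell. In all, 124 cells had 10 or more Penk UMIs, and 109 of them belonged to the Krt79-positive upper follicle.

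Cells were clustered without Penk and the other genes of its pathway, and clusters were named from marker genes, which gave 26 groups, 18 of them named. The 8 unnamed groups, 25.3% of the cells, are called by their leading genes. Penk was chosen by its level and share of cells with a UMI over cell groups in these same libraries, so its levels are a description and carry no test. The label of Penk as a keratinocyte (KC) gene held in part. Penk was counted in all 6 interfollicular epidermis (IFE) groups, but the highest level was in Merkel cells, which are touch-sensing cells and not KCs of the IFE.

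Merkel cells stood first, with 466 CPM in mouse 1 (interval 373 to 575) and 374 CPM in mouse 2 (293 to 471). This group rests on 40 cells, 20 per mouse, and 158 Penk UMIs. Its name was clear from the markers. Krt8 was at 1219 and 1050 CPM, Krt20 at 374 and 312 CPM and Isl1 at 628 and 582 CPM, while in the upper follicle group Krt20 and Isl1 had 0 UMIs. A Penk UMI was found in 19 of the 20 Merkel cells of mouse 1 and 18 of the 20 of mouse 2. These cells were shallow, with medians of 6862 and 6412 UMIs. The first place rests on few cells: of those under 5% mitochondrial UMIs, the 4 Merkel cells of mouse 1 had 732 CPM and the 5 of mouse 2 had 154 CPM, against 225 and 262 CPM in the upper follicle, so the order turned in mouse 2.

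The Krt79-positive upper follicle came next, with 214 CPM in mouse 1 (203 to 225) and 238 CPM in mouse 2 (227 to 250). These KCs line the opening of the follicle and its duct, and their markers Krt79 and Gata6 stood at 13370 and 9055 CPM and at 58.0 and 36.2 CPM. The 631 cells made up 3.24% of the cells and held 32.2% of the Penk UMIs. Relative to the summed basal IFE cells of the same mouse, the level was 6.86-fold in mouse 1 and 7.62-fold in mouse 2. A Penk UMI was found in 67.1% and 72.5% of these cells. The intervals of both mice lay below those of the Merkel cells and above those of every other group.

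**Figure D1:**
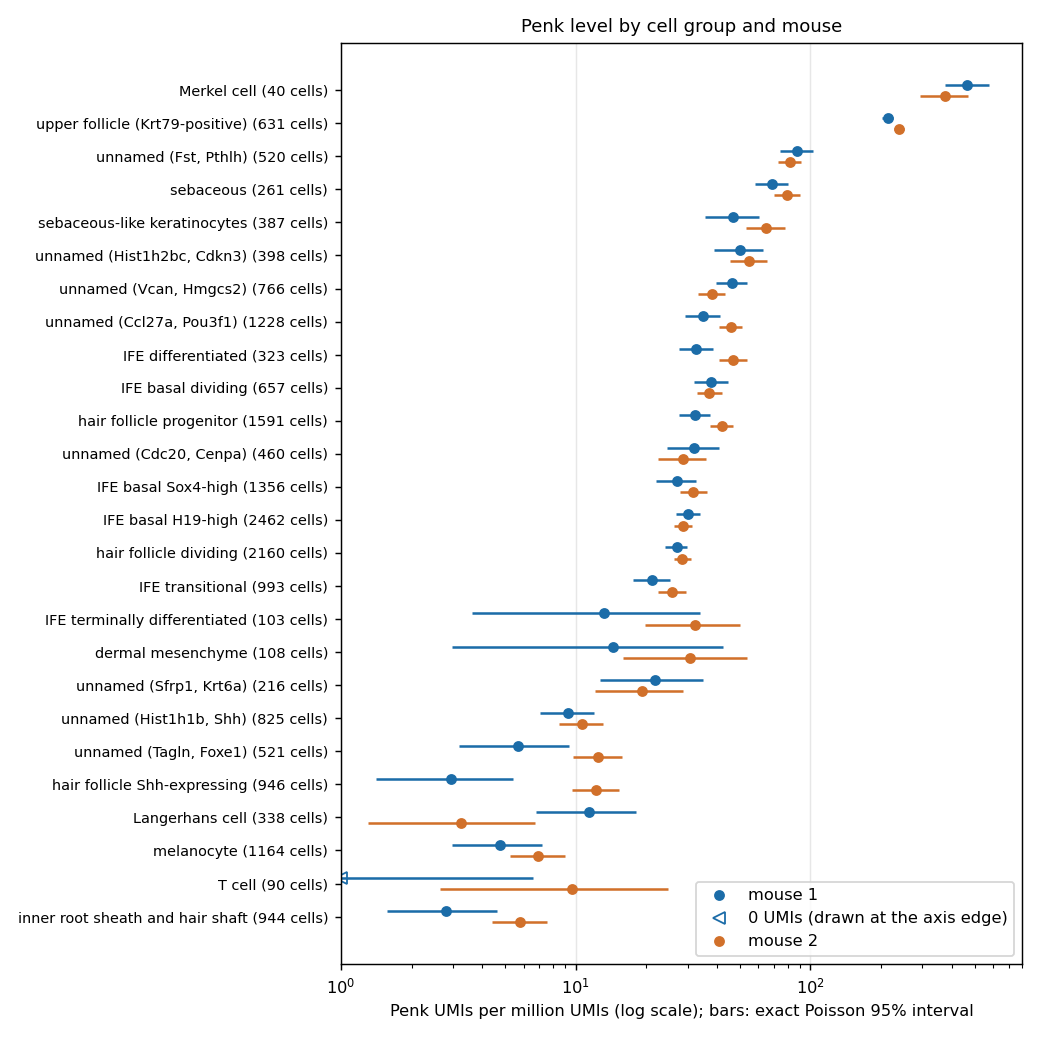
Penk level (UMIs per 1000000 UMIs, log axis) in each of the 26 cell groups, with 1 point per mouse and exact 95% Poisson intervals as bars. Merkel cells (466 and 374 CPM) and the Krt79-positive upper follicle (214 and 238 CPM) stand apart from the IFE groups, and T cells of mouse 1 had 0 Penk UMIs.

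Below them, levels were closer together. An unnamed KC group led by Fst and Pthlh had 87.6 and 81.7 CPM, and sebaceous cells, marked by Scd1 and Cidea, had 68.6 and 79.7 CPM. The values of the mice lay apart from those of the neighbours in the order, but the intervals of these 2 groups overlapped in each mouse. They were 74.2 to 102.6 and 72.6 to 91.6 in the unnamed group, and 58.2 to 80.2 and 70.15 to 90.1 in sebaceous cells. Of the unnamed group, 9.50% and 16.1% of the cells were called as doublets, and their part in the level was not tested. A group of KCs led by sebaceous markers had 46.9 and 64.7 CPM. Its intervals, 35.6 to 60.6 and 52.96 to 78.2, overlapped those of the sebaceous cells in each mouse. From there on the values of the mice overlapped between most neighbours. IFE differentiated (32.7 and 46.9 CPM), IFE basal dividing (37.9 and 37.1 CPM) and hair follicle progenitor cells (32.2 and 41.9 CPM) did not differ beyond their spread. The same held between IFE basal Sox4-high (26.97 and 31.8 CPM) and IFE basal H19-high cells (30.1 and 28.6 CPM). Dividing hair follicle cells together had 26.9 and 28.4 CPM, close to those basal groups, but their clusters differed. The largest, of 922 cells, had 16.0 and 17.1 CPM (12.5 to 20.2 and 14.2 to 20.6). The others had 37.3 and 36.0 CPM, and 28.2 and 32.9 CPM.

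Deeper parts of the follicle were low in Penk. Hair follicle Shh-expressing cells, the signalling end of the growing follicle, had 2.94 and 12.2 CPM, with intervals of 1.41 to 5.40 and 9.61 to 15.4 that did not overlap. Inner root sheath and hair shaft cells had 2.81 and 5.82 CPM. These values were near those of the non-epithelial cells. Melanocytes had 4.75 and 6.94 CPM, Langerhans cells 11.4 and 3.26 CPM, and T cells 0 and 9.68 CPM, from 0 and 4 UMIs. With 0 of 52 T cells, mouse 1 had a limit of 5.37 CPM (3 UMIs).

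Taken by lineage, those 3 non-epithelial groups together had 5.91 and 6.31 CPM, which is used as a reference level and not as a measure of free RNA alone. Immune cells can express Penk, and 9 of the 18 UMIs in Langerhans cells of mouse 1 came from 1 cell. Of the 2 melanocyte clusters, 1 had 38.5% and 47.7% of its cells called as doublets and 10.3 and 14.2 CPM, and the other had 1.17% and 1.08% called and 1.68 and 2.85 CPM. Basal IFE cells had 31.1 and 31.2 CPM, above each of these values in both mice. Suprabasal IFE cells had 25.6 and 33.3 CPM, with mouse 1 below and mouse 2 above its own basal level. Their largest stage, the 993 IFE transitional cells, had 21.04 and 25.8 CPM, below the level of all basal cells together in both mice. The basal cells were not even. Of the 2 clusters named IFE basal H19-high, the one of 1307 cells had 20.6 and 24.8 CPM, near the transitional cells. The other, of 1155 cells, had 40.7 and 32.3 CPM. The 103 IFE terminally differentiated cells had 13.2 and 32.3 CPM, from 4 and 20 UMIs. With a mitochondrial limit of 5%, cells were clustered and named again. Basal and suprabasal IFE cells then stood at 47.0 and 45.9 CPM on average. Names moved in that clustering, where the group named Merkel cell held 168 cells of the unnamed group led by Sfrp1 and Krt6a and 8 of the Merkel cells above. The part of moved names in these levels was not tested. At the main limit, the 4 other named follicle groups together had 20.2 and 23.6 CPM. Dermal mesenchyme, 108 cells, had 14.5 and 30.8 CPM from 3 and 12 UMIs.

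The share of cells with a UMI moved with depth, so each cell was also thinned to 3000 UMIs. Before thinning, 24.5% ± 1.01 (SD, n = 2) of basal IFE cells had a Penk UMI, against 23.9% ± 1.51 of suprabasal IFE cells and 4.06% ± 1.05 of melanocytes, Langerhans and T cells together. After thinning, the shares were 8.81% ± 1.12, 7.19% ± 1.27 and 1.33% ± 0.510. The order of the lineages was kept. In differentiated cells the share went from 31.2% and 39.0% to 7.19% and 10.8%, and their median depth was 24640 and 23680 UMIs against 8786 and 9667 UMIs in melanocytes. In the upper follicle the thinned share was 37.2% and 41.8%, with 2 and 3 cells too shallow to be thinned. Merkel cells kept 75.0% and 50.0%.

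**Figure D2:**
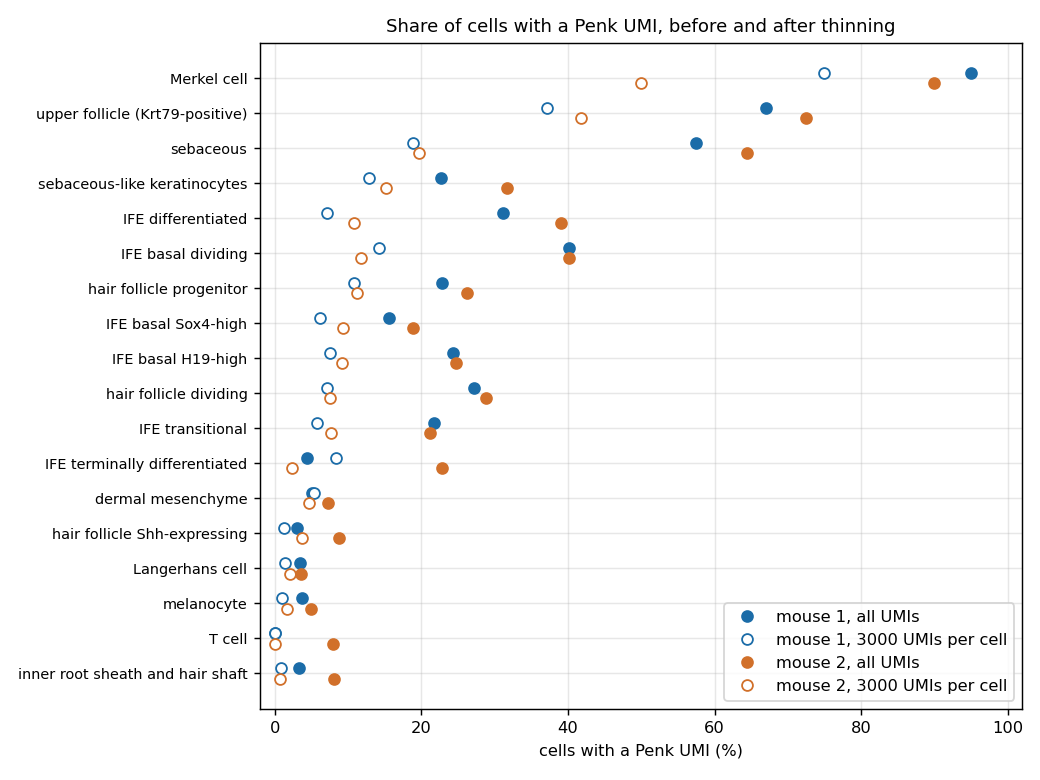
Share of cells with a Penk UMI (%) in the 18 named groups, with filled points for all UMIs, open points for cells thinned to 3000 UMIs, and 1 colour per mouse. Merkel cells and the upper follicle stay highest after thinning, while IFE differentiated cells fall back to the shares of the basal groups.

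Within the upper follicle, Penk was not even. When the cells of each mouse were split into 3 ranges of equal cell number by the share of Krt1 and Krt10 UMIs, the keratins of suprabasal cells, the lowest range had 127 CPM in mouse 1 (115 to 139) and 97.3 CPM in mouse 2 (87.4 to 108). The middle range had 230 and 253 CPM. The highest range had 399 CPM (367 to 433) and 487 CPM (456 to 519). The 3 intervals did not overlap in either mouse. Median depth went the other way, from 27170 and 30940 UMIs in the lowest range to 10090 and 12590 UMIs in the highest.

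Penk was lower in the upper follicle cells with most Krt75, a keratin of the companion layer and the inner part of the upper follicle. Upper follicle cells with 0 Krt75 UMIs had 251 and 268 CPM of Penk. The 25 and 18 cells with 1 to 4 had 248 and 121 CPM, so in mouse 1 they were level with the cells without Krt75. Those with 5 or more Krt75 UMIs, 31 and 21 cells, had 54.98 and 83.5 CPM, and their medians of 46460 and 35580 UMIs made them the deeper cells. Krt10 was at 229 and 1205 CPM in them, against 1515 and 2128 CPM in the cells without Krt75.

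The level given to differentiated IFE cells turned on where the border to the upper follicle was drawn. In a first clustering of all cells, a group named IFE differentiated had 393 cells with 1228 Penk UMIs. The second clustering, of KCs alone, moved 64 of these cells to the upper follicle, and they carried 70.4% of those UMIs. The 64 cells had 510 CPM in mouse 1 and 730 CPM in mouse 2, and the 318 cells that stayed had 33.0 and 47.0 CPM. In the first clustering alone, IFE differentiated cells would have stood at 81.7 and 144 CPM.

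Krt79 UMIs separated the remaining Penk among differentiated cells. Those with 0 Krt79 UMIs had 11.4 CPM of Penk in mouse 1 (7.46 to 16.7) and 23.3 CPM in mouse 2 (17.6 to 30.4). Those with 5 or more, 24 and 30 cells, had 132 CPM (106 to 162) and 124 CPM (102.4 to 148). In this class 1 cell held 27 of the 91 Penk UMIs of mouse 1, and 1 cell held 29 of the 118 of mouse 2. Transitional cells, between basal and differentiated, repeated the difference by Krt79 UMIs. With 0 Krt79 UMIs they had 14.7 and 23.3 CPM, and with 5 or more, 46 cells in each mouse, they had 67.4 and 75.6 CPM. Without cells of 5 or more Krt79 UMIs, suprabasal IFE cells had 19.1 CPM, against 31.2 CPM in basal IFE cells. Whether such cells belong to the IFE or to the follicle opening cannot be told apart here.

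**Figure D3:**
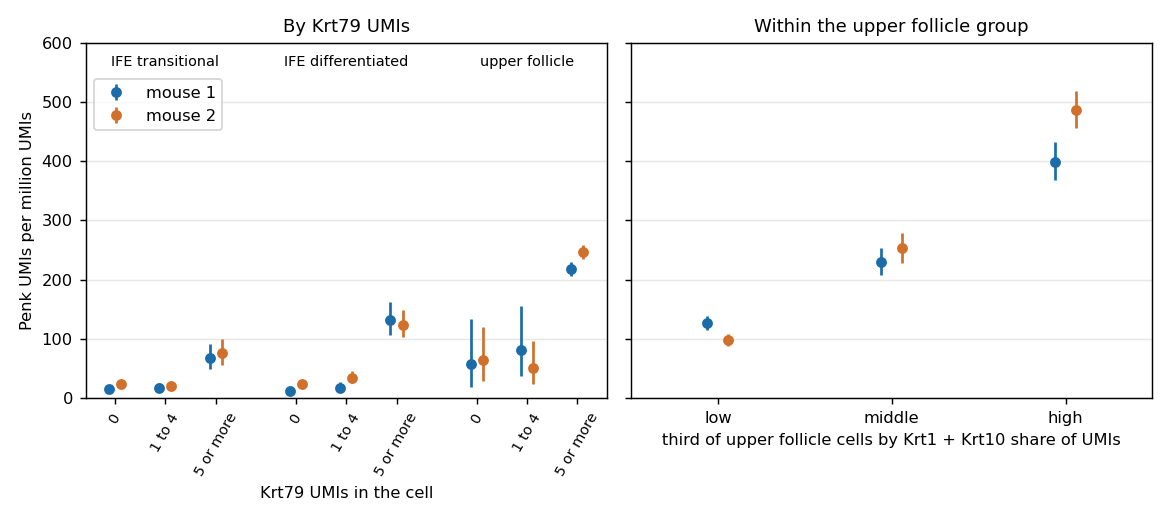
Penk level (UMIs per 1000000 UMIs) per mouse with exact 95% Poisson intervals, at left by the number of Krt79 UMIs in the cell for 3 groups, and at right for 3 ranges of upper follicle cells by their Krt1 and Krt10 share. IFE differentiated cells with 5 or more Krt79 UMIs reach 132 and 124 CPM, and the upper follicle cells highest in Krt1 and Krt10 reach 399 and 487 CPM.

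Over bins of IFE cells ordered by their keratins, Penk stayed within a narrow range, but most of these cells were basal. IFE cells of each mouse were put into 10 bins of equal size by the log2 ratio of Krt1 and Krt10 to Krt5 and Krt14 UMIs, which are ranges and not cell types. Of the 5894 cells, 4475 were basal, and the median ratio was still -2.92 and -2.60 in bin 8. The range over the bins therefore says little about suprabasal cells. Over the bins the level ran from 25.2 to 35.5 CPM in mouse 1 and from 26.1 to 39.9 CPM in mouse 2. The least differentiated bin had 26.9 CPM in both mice. The most differentiated bin had 25.2 CPM in mouse 1 (21.1 to 29.9) and 39.9 CPM in mouse 2 (35.6 to 44.6), so the mice did not share a direction. Bins were cut within each mouse, and the median log2 ratio of this bin was 7.44 and 4.12. The mice are thus not compared at the same point of differentiation. In that bin, 5.94% and 10.5% of the cells had 5 or more Krt79 UMIs, and without those cells it stood at 14.6 and 27.9 CPM. Bin 9 without such cells stood at 11.2 and 25.8 CPM.

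**Figure D4:**
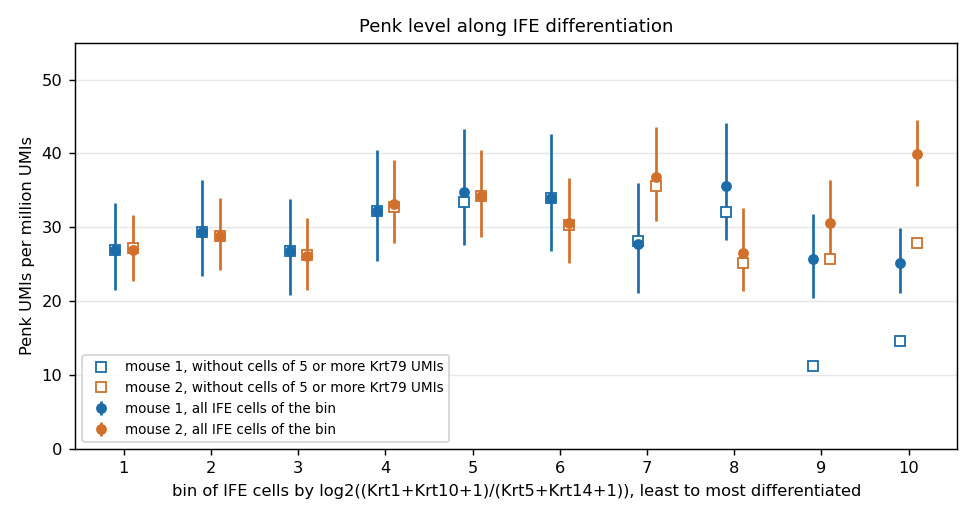
Penk level (UMIs per 1000000 UMIs) in 10 bins of IFE cells from least to most differentiated, with filled points and exact 95% Poisson intervals for all cells of a bin and open squares for the bin without cells of 5 or more Krt79 UMIs. Filled points lie between 25.2 and 39.9 CPM in all bins, and the squares fall below them in the last 2 bins.

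Among the genes whose level over the 18 named groups was most like that of Penk were Hipk3, Krt7, Mob4 and Slc4a4, with a mean Pearson r over the mice of 0.863, 0.841, 0.815 and 0.806 among 9223 genes. Hipk3 is a kinase, Krt7 a keratin of simple and ductal epithelia and Slc4a4 a bicarbonate transporter. Krt7 also served as a marker of the upper follicle, so its likeness is in part built in. The groups share libraries and differ in depth, and Merkel cells pull on the measure. Without them r was 0.762 for Hipk3, 0.724 for Krt7, 0.845 for Mob4 and 0.658 for Slc4a4. The highest r was then 0.853, for a gene not named here. Mob4 stayed among the closest genes, and Hipk3, Krt7 and Slc4a4 did not.

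Genes that act with Penk were taken from lists of 49 genes, all of which have a row in the tables. To ask how they vary between KC groups, UMIs were summed per mouse and named KC group and fitted in edgeR (quasi-likelihood test), and p was adjusted by Benjamini-Hochberg over all 12630 genes tested, of which 36 were pathway genes. The groups are clusters of the same cells, and sums of 2 mice give the spread. Log2 fold changes compare the mean of the suprabasal groups, or the upper follicle, with the mean of the basal groups, each group counting equally, so they can depart from the ratio of the summed levels printed beside them. Between suprabasal and basal IFE, 48.3% of all genes passed, 22.6% higher and 25.6% lower. Of the pathway genes, 52.8% passed, 8 higher and 11 lower, which is near that background. The 8 include Chga, which had only 10 UMIs in suprabasal and 2 in basal cells. Between the upper follicle and basal IFE, 52.5% of all genes passed, 27.2% higher and 25.3% lower. Of the pathway genes, 66.7% passed, 14 higher and 10 lower. The 14 include Oprd1, which had 0 UMIs in basal IFE cells and whose own test is not reported. The median log2 fold change of the pathway genes was -0.14 and 0.20 in these 2 comparisons, against -0.05 and 0.0034 over all genes tested. With called doublets left out, 52.8% of the pathway genes passed in the upper follicle, 12 higher and 7 lower. Over all genes, 6610 of 12719 then passed, so the pathway genes were near the background there.

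Other opioid precursors were nearly absent. Pdyn, the precursor of dynorphins, had 0 UMIs in all kept cells, and Pnoc, the precursor of nociceptin, had 9. Pomc, the precursor of beta-endorphin and of melanocortins, had 108, with 28 of them in melanocytes. None of these 3 genes passed the filter on low counts, so none was tested.

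Among the receptors, the mu and kappa receptor genes Oprm1 and Oprk1 had 0 and 1 UMIs in all, and the nociceptin receptor gene Oprl1 had 36. Oprd1, the gene of the delta receptor that enkephalins prefer, had 146 UMIs and was singled out after its values were seen. The upper follicle held 30 UMIs of Oprd1 in mouse 1 and 20 in mouse 2, or 4.48 and 2.79 CPM, and basal IFE cells held 0 in both mice. With 3 UMIs over both mice taken as the limit in basal IFE cells, the pooled upper follicle level was 59.8-fold that limit. This ratio is not a lower bound, since it leaves out counting error in the 50 upper follicle UMIs and the difference between the mice. No p is given for it, because it passed the filter on low counts only through groups where it was counted, though it is 1 of the 14 genes called higher. Hair follicle progenitor cells held 23 of the UMIs, melanocytes 3 and suprabasal IFE cells 1. Merkel cells held 1 in each mouse, or 5.42 and 5.20 CPM. The other UMIs lay in groups not listed here, so Oprd1 was not confined to the upper follicle.

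Ackr3, a scavenger receptor that binds opioid peptides, went the other way. It had 32.2 and 21.03 CPM in basal IFE cells, 3.34 and 2.62 CPM in suprabasal cells and 5.08 and 5.58 CPM in the upper follicle. Its log2 fold change was -2.79 ± 0.26 (SE, adjusted p = 3.3e-08, edgeR) in suprabasal cells and -2.35 ± 0.26 (adjusted p = 2.2e-07) in the upper follicle. Ogfr, the opioid growth factor receptor that binds Met-enkephalin, had 49.1 and 43.3 CPM in basal, 25.03 and 25.3 CPM in suprabasal and 45.9 and 44.8 CPM in upper follicle cells. It was lower in suprabasal cells (log2 fold change -0.71 ± 0.11, adjusted p = 1.6e-05), and in the upper follicle it did not pass (-0.15 ± 0.11, adjusted p = 0.25). With called doublets left out it did pass there (-0.26, adjusted p = 0.043).

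Of the 12 genes for cutting and trimming propeptides, 9 were tested. In the upper follicle Cpe, Ctsl, Furin, Pcsk5 and Pcsk6 were higher and Pcsk2 was lower, with Pcsk5 named after its values were seen. These are 55.6% and 11.1% of the genes tested, against 27.2% and 25.3% over all genes. With called doublets left out, 4 were higher and 1 lower, or 44.4% and 11.1%, against 3245 and 3365 of 12719 over all genes. Pcsk6 stood higher still in suprabasal IFE cells, at 8.41 and 7.36 CPM against 5.97 and 6.14 CPM in the upper follicle. Cpe, the carboxypeptidase that finishes enkephalins, had 1.01 and 1.44 CPM in basal IFE cells, 6.69 and 5.76 CPM in suprabasal cells and 83.9 and 64.8 CPM in the upper follicle, with no overlap. The log2 fold changes were 3.12 ± 0.28 (adjusted p = 1.6e-08, edgeR) in suprabasal cells and 5.81 ± 0.20 (adjusted p = 1.5e-14) in the upper follicle. Outside the groups compared, Cpe stood at 580 and 457 CPM in Merkel cells and 182.7 and 138.5 CPM in sebaceous cells. Those 2 groups and the upper follicle were the 3 groups highest in Cpe, and in Penk they were among the 4 highest, with Merkel cells at the top of both orders.

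Pcsk2, a convertase of the regulated secretory pathway, was high elsewhere. It had 19.1 and 16.9 CPM in basal IFE cells and 0.747 and 0.558 CPM in the upper follicle, a log2 fold change of -4.70 ± 0.49 (adjusted p = 1.3e-07, edgeR). In suprabasal IFE cells Pcsk2 was also below the basal level, at 1.34 and 1.97 CPM. Within the basal groups it was highest in Sox4-high cells, at 48.5 CPM ± 0.664 (SD, n = 2), and Merkel cells had 70.4 and 26.0 CPM. Pcsk1, the other convertase of that pathway, was counted with 11 UMIs, all of them in Merkel cells. Furin, which cuts precursors in the constitutive pathway, had 48.2 and 40.9 CPM in basal IFE cells and 60.9 and 67.3 CPM in the upper follicle (log2 fold change 0.38 ± 0.11, adjusted p = 0.0063). Cathepsin L (Ctsl), which also cuts proenkephalin, was lower in suprabasal cells (-0.57 ± 0.10, adjusted p = 0.00015) and higher in the upper follicle (0.42 ± 0.13, adjusted p = 0.0098), where its adjusted p was 0.11 with called doublets left out.

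Of the 5 genes for secretory granule proteins, Chga, Chgb and Scg3 were highest in Merkel cells, while Scg2 and Vgf had 0 and 1 UMIs there. Chga had 542 and 364 CPM in Merkel cells, Chgb 477 and 52.0 CPM, and Scg3 21.7 and 36.4 CPM. Scg5, a partner of Pcsk2 from the processing list, had 141 and 83.1 CPM there. In the upper follicle Chga and Scg5 had 0 UMIs and Chgb had 2. Only Chga of the 5 granule genes passed the filter on low counts, and its suprabasal value rests on 10 UMIs against 2 in basal cells. It is 1 of the 8 genes called higher in suprabasal IFE, and no p is given for it because of these low counts.

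All 8 genes for peptidases that break down enkephalins were tested, and 5 were higher and 1 lower in the upper follicle. These are 62.5% and 12.5% of the list, against 27.2% and 25.3% over all genes. The list includes Ace, named after its values were seen, which had only 14 UMIs in the upper follicle and 2 in basal IFE cells. The test of Ace is not reported because of these low counts. With called doublets left out, 4 were higher and 1 lower, or 50% and 12.5%, against 3245 and 3365 of 12719 over all genes. Mme, the gene of neprilysin, had 2.25 and 1.91 CPM in basal IFE cells and 20.3 and 15.9 CPM in the upper follicle, a log2 fold change of 2.92 ± 0.29 (adjusted p = 5.4e-08, edgeR). Anpep, aminopeptidase N, was named after its values were seen, and had 4.28 and 3.91 CPM against 13.9 and 8.94 CPM (1.77 ± 0.24, adjusted p = 3.5e-06). Both enzymes sit on the cell surface and cut enkephalins. Outside the groups compared, Mme stood at 23.1 and 21.2 CPM in melanocytes, which were low in Penk, above the upper follicle in each mouse. It stood at 32.5 and 10.4 CPM in Merkel cells, from 6 and 2 UMIs, and at 4.42 and 2.83 CPM in sebaceous cells. Dpp3, a cytosolic peptidase, was higher in suprabasal cells, at 98.9 and 87.3 CPM against 50.1 and 48.3 CPM in basal cells (1.01 ± 0.076, adjusted p = 1.8e-09). Lnpep was lower in the upper follicle (-0.51 ± 0.13, adjusted p = 0.0025). Ece1 was higher there (0.33 ± 0.12, adjusted p = 0.030), and with called doublets left out its adjusted p was 0.19.

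All 15 genes for factors that bind cyclic AMP response elements or AP-1 sites, or for their coactivators, were tested. In the upper follicle 3 were higher and 7 lower, or 20% and 46.7%, against 27.2% and 25.3% over all genes. With called doublets left out, 3 were higher and 3 lower, or 20% each, against 3245 and 3365 of 12719 over all genes. Jun had 2351 and 1707 CPM in basal IFE cells and 1239 and 851 CPM in the upper follicle (log2 fold change -0.99 ± 0.27, adjusted p = 0.0047, edgeR). Fos had 1035 and 588 CPM against 333 and 271 CPM (-1.42 ± 0.41, adjusted p = 0.0064), and with called doublets left out its adjusted p was 0.055. Atf3 was also lower (-2.48 ± 0.63, adjusted p = 0.0025). Crtc1 and Crtc3, coactivators of CREB, and Fosl2 were higher, by 0.66 ± 0.15, 0.25 ± 0.095 and 0.43 ± 0.17 on the log2 scale. At the coarser clustering resolution Crtc3 stood at 0.22 (adjusted p = 0.074) and Fosl2 at 0.41 (adjusted p = 0.055), and in DESeq2 Fosl2 stood at 0.42 (adjusted p = 0.088). With called doublets left out, Atf2 stood at -0.21 (adjusted p = 0.090), Fosb at -1.36 (adjusted p = 0.071) and Jund at -0.14 (adjusted p = 0.52). The call of Jund (-0.39, adjusted p = 0.0499) was also lost in DESeq2 (-0.38, adjusted p = 0.066) and with its size factors in edgeR (-0.38, adjusted p = 0.053). Creb1 did not pass in the upper follicle (-0.067 ± 0.090, adjusted p = 0.56). These genes differed between the mice, with Fos, Fosb and Atf3 in basal cells higher in mouse 1, and with the mouse as a block Junb also passed as lower (-0.21, adjusted p = 0.025), as did Cpd, a carboxypeptidase, as higher (0.18, adjusted p = 0.030).

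In suprabasal IFE the same list had 1 gene higher, Fosl2, and 5 lower, Atf2, Atf3, Creb1, Jun and Jund. These are 6.67% and 33.3% of the list, against 22.6% and 25.6% over all genes. With the mouse as a block, Fosb also passed as lower (-0.64, adjusted p = 0.0011) and Junb as higher (0.16, adjusted p = 0.035). When called doublets were left out and the cells were clustered again, the calls of Atf3, Jun, Mme, Lnpep and Ece2 (named after its values were seen) were lost, with adjusted p of 0.36, 0.24, 0.31, 0.20 and 0.28. Jund then stood at a log2 fold change of 0.013 (adjusted p = 0.96).

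**Figure D5:**
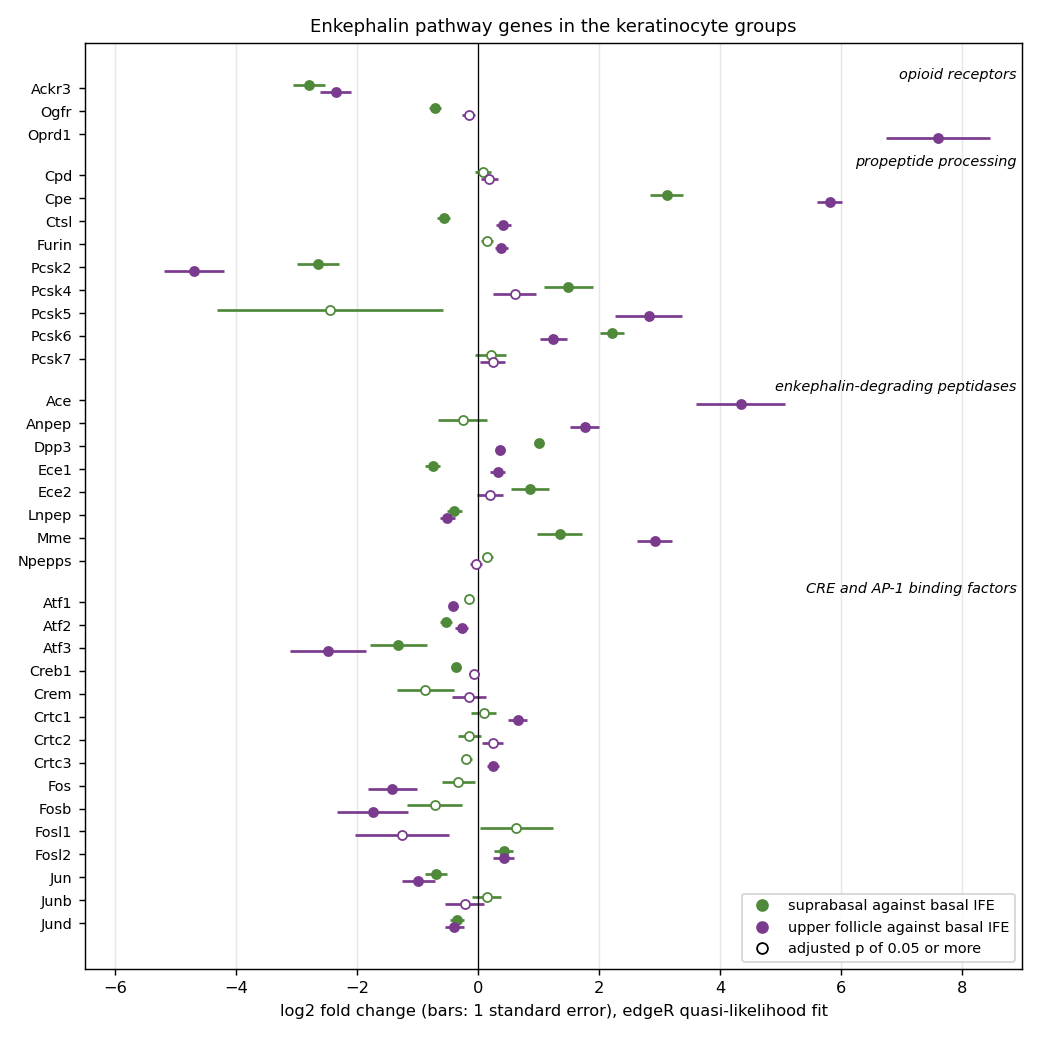
Log2 fold change against basal IFE, with bars of 1 standard error, for pathway genes tested, in suprabasal IFE and in the upper follicle. The secretory granule list, with Chga, is not drawn. Open points mark an adjusted p of 0.05 or more in edgeR's quasi-likelihood test. Cpe (5.81) and Mme (2.92) lie far to the right in the upper follicle and Pcsk2 (-4.70) far to the left. The fitted value of Oprd1 depends on the prior count because basal cells had 0 UMIs. The fill of its points is therefore not to be read as a test result.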

How the data were processed

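The authors aligned the reads to mm10 with Cell Ranger 3.0.2, per the labels, and deposited tables of UMI counts by gene for 10816 barcodes of mouse 1 and 15867 of mouse 2. Penk and the gene lists were chosen with earlier results of these data known. Cells were log-normalized, integrated with 30 dimensions on 2000 variable genes and clustered in Seurat 5.3.0 (R 4.3.3), first all cells at resolution 0.8 and then KCs at resolution 1.2, with Penk and its 49 pathway genes left out of the variable genes. Clusters were named from marker lists. Scrublet in scanpy 1.11.5 called doublets, which were kept. UMI counts were summed over 11 KC groups in each of the 2 mice and tested in edgeR 4.0.16 (TMM, filterByExpr, quasi-likelihood, 11 residual degrees of freedom, adjusted p under 0.05), after the steps were tested on simulated data. DESeq2 1.42.0 was an alternative. The mice pair the sums, since each mouse gave 1 sum to every group, and the deviations of 55 pairs of groups correlated at a median r of 0.43, with 46 pairs over 0.1. The pathway genes named had 10 CPM or more in both mice in a named group, except where the text says that a gene was named after its values were seen. The 5 genes most like Penk were ranked by Pearson r of log2(CPM + 10) over the named groups, among genes with 20 CPM or more, and 1 of them is not reported here. Other clustering, doublet, mitochondrial, thinning and normalization settings, no filter on low counts, a block for the mouse and each mouse alone were tried.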

Additional observations from a re-analysis of the deposited data

Results flagged for a closer look

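Barcodes outside the limits on genes and mitochondrial UMIs, 3209 in mouse 1 and 3986 in mouse 2, held 400 and 485 Penk UMIs, which enter no value above. They had 27.2 and 27.6 CPM of Penk, and 6.33% and 6.75% of them held a Penk UMI at median depths of 2050 and 2074 UMIs. Their cell types were not worked out.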

How the results depend on the processing

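Penk in the upper follicle was above basal IFE under every alternative tried, by 5.36-fold to 9.48-fold, while the ratio of suprabasal to basal IFE ran from 0.611 to 1.92. The mean level in basal IFE, 31.2 CPM, was 31.1 at resolution 0.8, 32.0 without integration, 47.0 with a mitochondrial limit of 5%, 31.0 without called doublets, 32.4 after thinning and 31.6 in the first clustering. Its share of cells with a UMI was 32.0% with the 5% limit, 8.81% after thinning and 26.3% in the first clustering. Suprabasal IFE had 45.9, 61.0 and 19.1 CPM with the 5% limit, in the first clustering and without cells of 5 or more Krt79 UMIs, and shares of 28.1%, 26.6% and 20.6%, with 7.19% after thinning. IFE differentiated cells had 113 CPM in the first clustering and 20.5 without the Krt79 cells, and shares of 29.2% without integration, 9.02% after thinning and 44.5% in the first clustering. The upper follicle had 200.1, 307.5 and 173 CPM without called doublets, after thinning and in the first clustering, and shares of 60.4%, 39.5% and 62.9%. The least differentiated bin had 27.95 CPM with 5 bins, 27.6 without doublets and 27.03 without the Krt79 cells, and the most differentiated bin 21.2 without them. The first clustering and the removal of Krt79 cells were chosen after the data were seen.

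Without called doublets, 7 pathway genes in place of 11 were lower in suprabasal IFE, and Jund changed sign to 0.013. Over all genes, 3158 of 12719 were then lower, in place of 3239 of 12630. Ece2 stood between -0.0050 without replicate 2 and 0.68 without replicate 1. With the mouse as a replicate block, 9 and 12 pathway genes were higher and lower in suprabasal IFE and 15 and 11 in the upper follicle, and no call was lost. The block also raised the calls over all 12630 genes. They were 6419 in suprabasal IFE and 7408 in the upper follicle, in place of 6097 and 6632. With 1 mouse left out no test was run, and the cause of the changes was not tested. The 2 mice of 1 genotype, 40 Merkel cells and few UMIs of receptors and granule genes limit precision.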
